A study of Mus musculus with 2 samples.

Results

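The respiratory chain genes of the nuclear genome were followed through tumors grown under the skin from MC38, a mouse colon carcinoma line, by droplet single-cell RNA sequencing. A gene was taken as a member when its symbol named a subunit of complex I (Nduf with a, b, c, s or v and a number), complex II (Sdha to Sdhd), complex III (Uqcr), complex IV (Cox4 to Cox8) or the ATP synthase, here complex V (Atp5). This gave 85 of the 32285 genes in the files: 38 in complex I, 4 in complex II, 8 in complex III, 18 in complex IV and 17 in complex V. Of these, 81 had at least 100 counts over both libraries, and the 4 below that, Cox6b2, Cox7b2, Cox8b and Cox8c, are all subunit genes of complex IV. Members were taken by symbol alone, though the choice was made with earlier results of these data known. One library came from tumors of Lmo7+/+ mice and 1 from tumors of Lmo7-/- mice, both of live sorted cells, and the hosts were female mice of 6 to 8 weeks. The knockout is of the whole mouse, so it is a property of the host cells and not of the implanted MC38 cells. The number of mice behind each library is not given in the sources used here. With 1 library per genotype no test between genotypes was possible, and values carry 95% exact intervals that cover counting error only.

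The respiratory chain of the inner mitochondrial membrane passes electrons from NADH (through complex I) and from succinate (through complex II, which is also an enzyme of the tricarboxylic acid cycle) to complex III and then, by cytochrome c, to oxygen at complex IV. The protons pumped on the way drive ATP synthesis by complex V. Complexes I, III, IV and V mix subunits of nuclear and mitochondrial origin, while complex II is wholly nuclear, and several subunits of complex IV exist as alternative isoforms whose use depends on tissue or oxygen.

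Many genes of the chain are known targets of NRF1, a transcription factor of mitochondrial biogenesis that binds the letters GCGCA, any base, then GCGC. Promoter windows of 300 bases (250 before to 50 after the start) were found for 69 of the 85 members in RefSeq GRCm38.p6. The motif, read on either strand, was present for 17 of those 69 members (24.6%) and for 5.19% of 27025 genes with such a window. By complex it was present for 7 of 33 members of complex I, 2 of 3 of complex II, 1 of 5 of complex III, 1 of 13 of complex IV and 6 of 15 of complex V. A match is a description of the letters and not a measured binding site. The 250 bases before the start are shown for 4 members to which the results return: Ndufs6 (complex I, chr13:73328483-73328732, minus strand), Sdha (complex II, chr13:74350241-74350490, minus strand), Atp5g2 (complex V, chr15:102671048-102671297, minus strand) and Cox6a1, the only complex IV member with the motif (chr5:115348959-115349208, minus strand), each written 5′ to 3′ in the direction of transcription with the NRF1 motif in capitals.
Ndufs6: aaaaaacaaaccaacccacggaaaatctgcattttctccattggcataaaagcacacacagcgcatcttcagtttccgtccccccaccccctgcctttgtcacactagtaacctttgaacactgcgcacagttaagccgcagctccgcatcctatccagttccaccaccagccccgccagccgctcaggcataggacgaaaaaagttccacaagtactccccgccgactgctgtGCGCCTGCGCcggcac
Sdha: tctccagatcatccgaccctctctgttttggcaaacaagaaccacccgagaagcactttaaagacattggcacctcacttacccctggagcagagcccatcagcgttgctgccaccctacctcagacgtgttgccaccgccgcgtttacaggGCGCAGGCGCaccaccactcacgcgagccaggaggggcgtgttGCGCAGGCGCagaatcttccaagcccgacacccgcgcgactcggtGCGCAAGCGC
Atp5g2: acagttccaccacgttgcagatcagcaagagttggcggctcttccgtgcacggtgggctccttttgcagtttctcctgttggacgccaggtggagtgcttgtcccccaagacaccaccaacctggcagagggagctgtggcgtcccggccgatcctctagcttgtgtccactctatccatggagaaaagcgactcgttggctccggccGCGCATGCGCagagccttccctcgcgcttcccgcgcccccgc
Cox6a1: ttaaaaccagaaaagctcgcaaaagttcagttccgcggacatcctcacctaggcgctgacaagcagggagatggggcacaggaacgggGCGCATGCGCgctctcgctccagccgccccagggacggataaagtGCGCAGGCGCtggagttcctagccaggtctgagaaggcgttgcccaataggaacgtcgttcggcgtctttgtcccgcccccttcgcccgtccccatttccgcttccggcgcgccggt
The core of the hypoxia response element, ACGTG on either strand, was present for 18 of the 69 members (26.1%) and for 21.8% of all genes with a window. Printed windows end 1 base before the annotated start, and in Sdha the last of 3 matches lies directly at that end.

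The Lmo7+/+ library held 16208 droplets and 98582479 UMIs (counted molecules), the Lmo7-/- library 15163 droplets and 80648345 UMIs. After filters, 13542 and 11860 cells were left, with medians of 4536 and 4305 UMIs. The members took 2.03% and 2.04% of all UMIs of these cells. The 2 libraries shared 279 cell barcodes as deposited and 175 after filters. Lmo7 itself did not check the labels: outside tumor cells it had 34 counts (1.28 per 1000000 UMIs) in the library labelled Lmo7+/+ and 30 (1.15) in that labelled Lmo7-/-, and the part of the gene that was deleted is not given in the sources used here. Cells were clustered without the members and without mitochondrially encoded genes. Clusters were then named by marker genes as tumor cell-like (6706 and 4882 cells in the Lmo7+/+ and Lmo7-/- libraries), macrophage-like (3672 and 4275), M-MDSC-like (monocytic myeloid-derived suppressor cells, 506 and 388), dendritic-like (323 and 207), T-like (403 and 558), NK-like (76 and 57), fibroblast-like (129 and 98) and endothelial-like (99 and 74). A further 11.8% and 10.8% of cells stayed unnamed. Tumor cell-like clusters were named by few host markers, Ptprc below 20 counts per 1000000 UMIs and at least 3 detected tumor markers. The leading genes of the biggest of them, cluster 2, held 1 gene of the NK list (Klra4) and none of the tumor list, and those of cluster 5, all of the cell cycle, held none of the tumor list either, so tumor cell values are also given by cluster. Cluster 9, named M-MDSC-like for its leading genes, had a score of 0.571 for that list and of 0.627 for the neutrophil list. All 12 macrophage markers were lower in tumor cell-like than in macrophage-like cells in both libraries, at a summed 183 and 145 counts per 1000000 UMIs (CPM) against 18073 and 21366. Tumor markers summed to 211 and 196 CPM in tumor cell-like and to 27.7 and 19.9 CPM in macrophage-like cells, but to 1699 and 268 CPM in fibroblast-like cells, above the tumor cells. B cell-like (48 cells) and mast cell-like (28 cells) clusters were too small to compare.

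As a share of all UMIs, tumor cells carried the highest level of nuclear respiratory chain RNA and fibroblasts the lowest. Summed over the 85 members, tumor cell-like cells held 22231 CPM with Lmo7+/+ hosts and 22922 with Lmo7-/- hosts. T-like cells followed with 18963 and 19933, and macrophage-like cells held 16699 and 16827. M-MDSC-like cells (16275 and 16704), dendritic-like cells (16014 and 17402) and NK-like cells (16497 and 16623) were close to macrophages. Endothelial-like cells (14977 and 15290) and fibroblast-like cells (13622 and 12741) were below them. The order of tumor, T, macrophage, endothelial and fibroblast cells was thus the same in both libraries, while M-MDSC, dendritic and NK cells changed places. It did not hold on library sizes set by TMM, which centres on the bulk of genes: there tumor cells held 18328 and 19285 CPM, macrophages 17888 and 19273, T-like cells 17583 and 20025 and dendritic-like cells 17732 and 19794, and endothelial-like cells were lowest with 14165 and 14149. Per cell, the median share of UMIs from members was 2.03% (quartiles 1.60% and 2.42%) and 2.12% (1.69% and 2.49%) in tumor cells and 1.62% (1.35% and 1.86%) and 1.62% (1.35% and 1.90%) in macrophages, so the cells of the 2 classes overlapped widely.

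**Figure D1:**
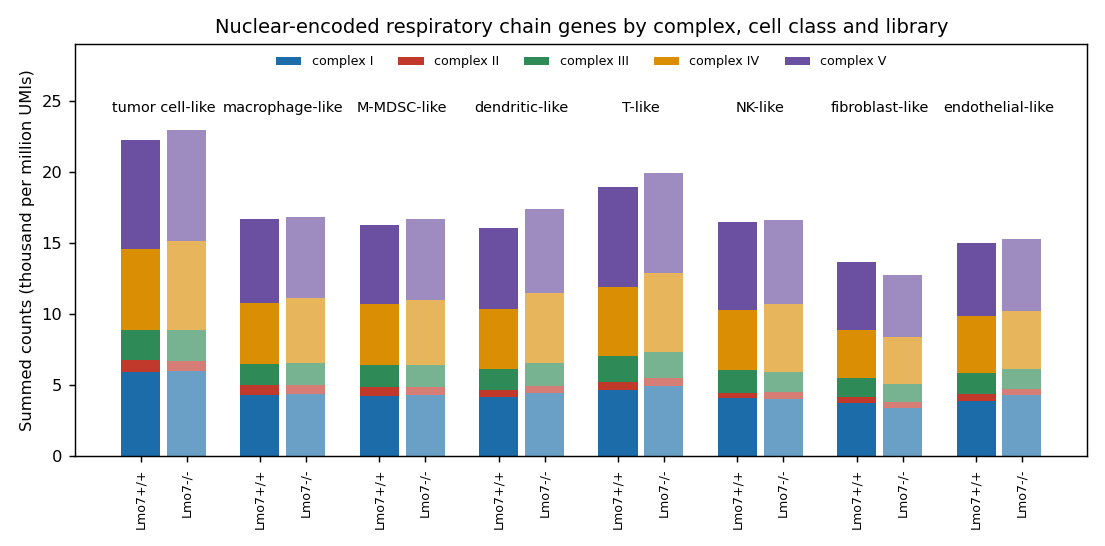
Summed counts of the members, in CPM divided by 1000, stacked by complex for each cell class, with the Lmo7+/+ library as the darker and the Lmo7-/- library as the lighter bar of each pair. Tumor cell-like bars reach 22231 and 22922 CPM, fibroblast-like bars 13622 and 12741, and complexes I, IV and V make up most of every bar.

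Complex V was the most abundant sum in every class, with 7686 and 7829 CPM in tumor cells and 5910 and 5728 in macrophages, and complex II the smallest, with 851 and 743 against 691 and 686. In the plot of sums by complex, complex II was also the only one below macrophages in each of the other 5 host classes compared: the log2 difference from macrophages was -0.17 and -0.26 in M-MDSC-like, -0.36 and -0.35 in dendritic-like, -0.29 and -0.33 in T-like, -0.63 and -0.73 in fibroblast-like and -0.54 and -0.59 in endothelial-like cells (Lmo7+/+ and Lmo7-/- libraries), with every interval below 0. The widest of those intervals was -0.81 to -0.38, in endothelial cells of the Lmo7-/- library. By share of UMIs, T cells had more RNA of complexes I, III, IV and V than macrophages and less of complex II. Their complex III sum was 0.29 and 0.28 higher on the log2 scale, and their complex V sum 0.27 and 0.30 higher.

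Tumor cell-like cells had more RNA than macrophage-like cells for every complex. The log2 differences, Lmo7+/+ then Lmo7-/- library, were 0.46 and 0.46 for complex I, 0.30 and 0.12 for complex II, 0.49 and 0.53 for complex III, 0.40 and 0.44 for complex IV and 0.38 and 0.45 for complex V, and 0.41 and 0.45 for all members. Complex II differed most between the libraries, with intervals of 0.27 to 0.33 and 0.09 to 0.15, and the intervals of complexes IV and V were also apart, by less. The 13 subunits encoded in the mitochondrial genome were also higher, by 0.26 and 0.32, and genes of glycolysis by 0.67 and 0.64. A member was called when it differed by at least 0.5 on the log2 scale (1.41-fold) with the same sign in both libraries: 30 of 81 were higher in tumor cells and 2 were lower. Over all genes, 46.8% were called higher and 21.5% lower, and the median gene was 0.47 and 0.56 higher against 0.33 and 0.39 for the median member. The share of members called higher was thus below the share of all genes. The difference also depended on the scale. With library sizes set by TMM, the members' sums differed by 0.04 and 0.00, with 11 members higher and 12 lower, and the share of higher among all called genes went from 68.5% to 53.9%. Of 12692 genes tested, 4340 were called higher and 3710 lower on TMM, so members were called less often than genes in general in both directions.

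**Figure D2:**
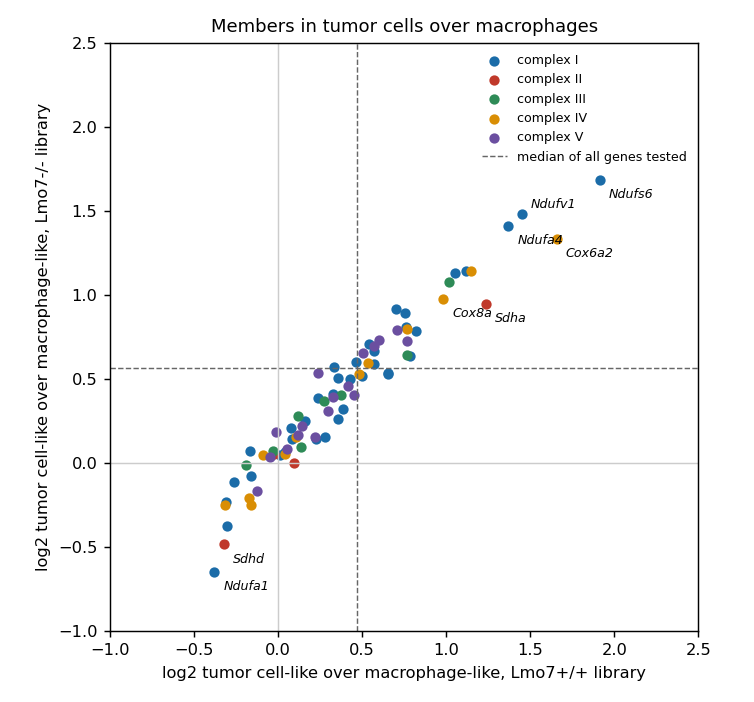
Log2 difference of each member between tumor cell-like and macrophage-like cells in the Lmo7+/+ library (horizontal) and the Lmo7-/- library (vertical), coloured by complex, with dashed lines at the median of all genes tested. Points lie near the diagonal, Ndufs6, Ndufv1, Ndufa4 and Cox6a2 stand at the upper right, and Cox4i2, Cox7a1 and Ndufa4l2 lie outside the axes.

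Among the members that differed most, 17 of 38 in complex I were called higher in tumor cells, against 1 of 4 in complex II, 2 of 8 in complex III, 5 of 14 in complex IV and 5 of 17 in complex V. Ndufa4l2, a relative of Ndufa4 known to be induced by low oxygen, had 86.5 and 91.4 CPM in tumor cells against 4.98 and 4.23 in macrophages, that is a log2 difference of 4.12 and 4.43. Ndufs6, a small subunit of complex I, had 382 and 310 CPM against 101 and 96.7 (1.91 and 1.68). Ndufv1, which holds the site where NADH is oxidised, had 126 and 114 against 46.2 and 40.9 (1.45 and 1.48). Ndufa4 had 325 and 305 against 126 and 115 (1.37 and 1.41). Cox6a2, the heart and muscle isoform of a complex IV subunit, was low in both classes, with 12.6 and 12.3 against 3.98 and 4.89 CPM (1.66 and 1.33). The 2 members called lower were both isoforms of complex IV: Cox4i2 had 8 counts (0.14 CPM) and 4 counts (0.096 CPM) in tumor cells against 14.6 and 23.1 CPM in macrophages, and Cox7a1 had 0.40 and 0.46 CPM against 8.01 and 6.68. The next lowest, Ndufa1 (-0.38 and -0.65), Sdhd (-0.32 and -0.49) and Ndufa3 (-0.30 and -0.38), were near or short of the limit by share of UMIs. Over the processing alternatives, the lowest values were -0.76 and -1.10 for Ndufa1, -0.70 and -0.93 for Sdhd and -0.68 and -0.82 for Ndufa3. These lie past the limit. Sdha, of the same complex as Sdhd, lay at 1.24 and 0.95.

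The catalytic and core subunits did not move as 1 block between the classes. Values here are shares of all UMIs. TMM scaling lowers every tumor cell value against macrophages, so smaller differences depend on the scale. In complex I, Ndufs1, Ndufs3, Ndufv1 and Ndufv2 had more RNA in tumor cells than in macrophages in both libraries, for example 84.9 and 87.8 against 50.4 and 47.4 CPM for Ndufs1, the subunit with the most iron-sulfur clusters. Ndufs7, which carries the last cluster before ubiquinone, was close between them, at 35.9 and 40.7 against 40.4 and 38.7. In complex II, Sdha, the flavoprotein that oxidises succinate, had 353 and 268 CPM in tumor cells and 150 and 139 in macrophages, while Sdhb, the iron-sulfur subunit, had 151 and 142 against 141 and 142, and Sdhc and Sdhd, the membrane anchors, had 146 and 143 against 148 and 138 and 202 and 190 against 252 and 266. In complex III, the core subunits Uqcrc1 (121 and 109 against 123 and 104) and Uqcrc2 (126 and 134 against 116 and 110) were close, and the Rieske iron-sulfur protein Uqcrfs1 had 120 and 128 against 137 and 130. In complex V, the catalytic subunits Atp5a1 (1106 and 1065 against 730 and 642) and Atp5b (601 and 559 against 425 and 356) were higher in tumor cells, and Atp5c1, the central stalk, was close at 253 and 242 against 233 and 216. Over the 5 named classes of at least 100 cells in each library, and among members with counts in each of them, the widest ranges of CPM belonged to Cox4i2, Ndufa4l2, Cox7a1, Ndufs6 and Ndufv1, with log2 ranges of 6.70, 4.26, 3.87, 1.68 and 1.53 in the library with the smaller range. Cox6a2, at 0 counts in T-like cells of the Lmo7+/+ and in dendritic-like cells of the Lmo7-/- library, was not ranked. The narrowest were those of Cox7b, at 0.094, and Atp5mpl, at 0.13.

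The use of Ndufa4 and Ndufa4l2 and of the Cox4 forms differed between cell classes, while that of the Cox6a, Cox6b and Cox8 forms differed little. Ndufa4l2 made up 21.0% and 23.1% of the Ndufa4 and Ndufa4l2 counts in tumor cells, 3.81% and 3.55% in macrophages, 19.8% and 23.9% in endothelial cells and 62.2% and 46.3% in fibroblasts. In fibroblast-like cells Ndufa4l2 reached 226 CPM in the Lmo7+/+ and 113 CPM in the Lmo7-/- library, and the tumor marker list in those cells was also unequal, at 1699 and 268 CPM. Tumor cells were below these values, with 86.5 and 91.4 CPM of Ndufa4l2, and their tumor marker sums were lower too. The cause of the difference between the libraries in fibroblast-like cells was not tested. Ndufa4 is placed in complex I here by its symbol, although its protein is known today as a component of complex IV.

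**Figure D3:**
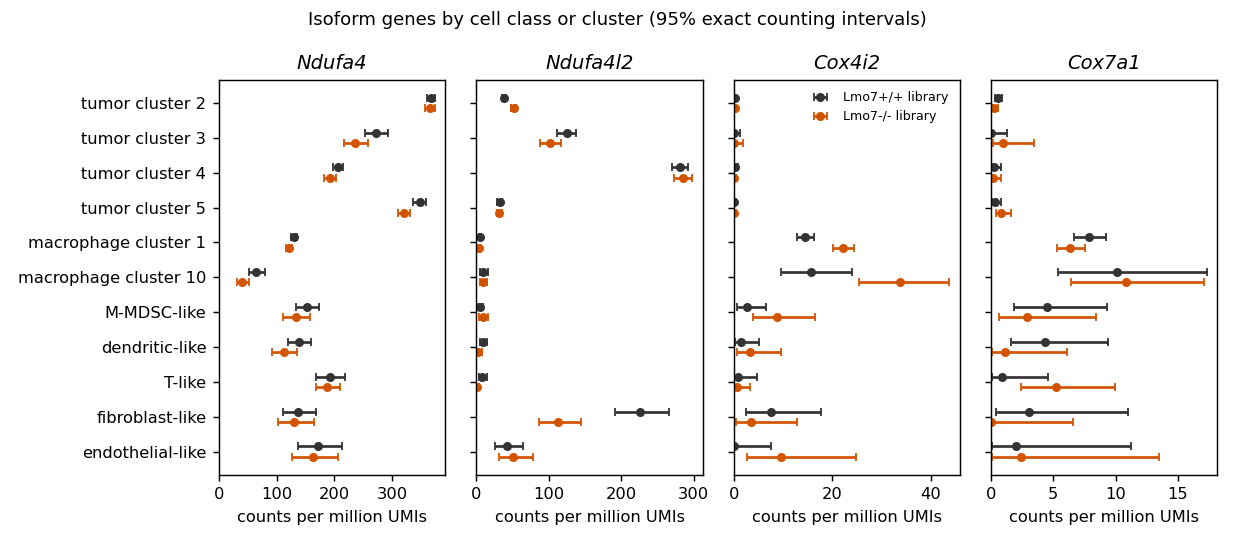
CPM of Ndufa4, Ndufa4l2, Cox4i2 and Cox7a1 in tumor and macrophage clusters and 5 other cell classes, for the Lmo7+/+ (dark) and Lmo7-/- (orange) libraries with 95% exact counting intervals. Ndufa4l2 is highest in tumor cluster 4 and in fibroblasts, where Ndufa4 is at 206 and 193 CPM and at 137 and 131 CPM, and Cox4i2 is highest in macrophages.

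Cox4i2, the alternative form of the subunit Cox4i1 that is known from lung and from low oxygen, had the most counts in macrophages. It made up 2.41% (2.15% to 2.70%) and 3.97% (3.63% to 4.32%) of Cox4 counts in macrophages, 0.025% and 0.017% in tumor cells, 0.46% and 1.65% in M-MDSC-like (4 and 9 counts), 0.27% and 0.56% in dendritic-like and 0.14% and 0.10% in T-like cells. In fibroblast-like cells it was 2.16% and 1.03% (5 and 2 counts), with wide intervals of 0.70% to 4.96% and 0.12% to 3.66%, and in endothelial-like cells 0% and 2.14% (0 and 4 counts). Cox7a1, the muscle form, was likewise highest in macrophages, at 1.84% and 1.54% of Cox7a counts. The ubiquitous forms divided differently: Cox7a2 made up 57.2% and 60.1% of Cox7a counts in tumor cells against 41.8% and 44.9% in macrophages, and Cox7a2l, which takes part in supercomplex assembly, reached 66.3% and 63.8% in dendritic cells. Of the 3 genes for the identical c subunit of the ATP synthase ring, Atp5g3 led in tumor cells of the Lmo7+/+ library with 48.4% and Atp5g2 held 32.5%, and in the Lmo7-/- library these were 44.6% and 36.9%. In NK cells Atp5g2 held 49.4% and 45.2% and Atp5g3 36.4% and 43.8%. Cox6a1 made up at least 97.5% of Cox6a counts and Cox6b1 at least 98.6% of Cox6b counts in every class, and Cox8a took all but 2 of the Cox8 counts of the named classes.

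Other host cells differed from macrophages in few members. In M-MDSC-like cells no member was called higher and 5 of 81 were lower, Cox6a2, Cox4i2, Cox7a1, Ndufa5 and Ndufc2, where 8.0% and 13.1% of all genes were called higher and lower. Cox6a2 rests there on 2 and 1 counts and Cox7a1 on 7 and 3, and their intervals reach above 0 in both libraries. In dendritic-like cells 2 were higher and 3 lower, with 10.7% and 17.3% of all genes. The higher ones were Ndufa6, at 226 and 223 CPM against 114 and 110 (1.00 and 1.02 on the log2 scale), and Cox7a2l, at 366 and 354 against 246 and 232. T-like cells had 7 members higher and 2 lower, with 25.9% and 22.1% of all genes. Uqcrh, the hinge protein of complex III, stood first at 559 and 565 CPM against 296 and 311, followed by Ndufb7, Ndufb11, Ndufa13, Ndufa4, Atp5d and Cox6c. In fibroblast-like cells 1 member was higher (Ndufa4l2) and 15 lower, with 19.1% and 26.2% of all genes, and Cox5a, at the second place of the lower ones after Cox4i2 (5 and 2 counts), had 142 and 150 CPM against 402 and 408. Endothelial-like cells had 2 higher (Ndufa4l2 and Ndufa8) and 6 lower, with 23.7% and 17.7% of all genes, among them Sdhd at 107 and 106 CPM against 252 and 266. In each of these 5 comparisons the share of members called higher lay below that of all genes.

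Within the tumor cells, cluster 4 had less RNA of the chain than cluster 2. Cluster 4 was led by Krt16, Car9, Ndufa4l2, P4ha2, Ero1l and Ankrd37, several of which are known hypoxia genes, and held 20797 and 23260 CPM of glycolysis genes against 12926 and 13502. Its member sum was 18260 and 18192 CPM against 23051 and 24784, lower by 0.34 and 0.45 on the log2 scale, while the median of all genes differed by 0.03 and 0.04. Complex V was lower by 0.43 and 0.56, complex III by 0.41 and 0.50, complex IV by 0.32 and 0.42, complex II by 0.25 and 0.40 and complex I by 0.22 and 0.33. Of 79 members 17 were called lower and 3 higher, where 12.3% and 14.0% of all genes were. Ndufa4 and Ndufa4l2 went opposite ways: Ndufa4 had 206 and 193 CPM in cluster 4 and 367 and 366 in cluster 2, and Ndufa4l2 281 and 285 in cluster 4 and 38.0 and 51.3 in cluster 2. Ndufv3 (334 and 383 against 196 and 207) and Cox6a2 (17.9 and 23.6 against 11.7 and 9.08) were the other two called higher. Among the lower were Uqcr10, Ndufb7, Ndufa5, Atp5k and Sdhb. Because clusters are defined from the genes of the same cells, these are descriptions, although no member entered the clustering.

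A smaller macrophage cluster, cluster 10, was led by Mmp12, Atp6v0d2, Arg1 and heat shock genes (Hspa1a, Hspa1b, Hspb1). It too had a lower member sum and a higher glycolysis sum than the larger cluster of its class. Its member sum was 13626 and 14190 CPM against 16898 and 17051 in macrophage cluster 1, lower by 0.31 and 0.26, with 15956 and 16953 CPM of glycolysis genes, 0.90 and 0.91 higher. The median of all genes differed by -0.12 and -0.15. Of 81 members 11 were called lower and 1 higher, where 15.4% and 7.79% of all genes were. The share of members called lower was thus below that of all genes, unlike in tumor cluster 4. Ndufa4 was again the lowest, at 64.7 and 40.3 CPM against 130 and 121, and Ndufa4l2 again the highest, at 8.57 and 8.42 against 4.75 and 3.88. Sdhb followed Ndufa4, at 75.6 and 80.6 against 145 and 147. Cox4i2, in contrast, had 15.6 and 33.7 CPM in cluster 10 and 14.5 and 22.2 in cluster 1.

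Cycling tumor cells (cluster 5) were close to cluster 2, with a sum 0.04 higher in the Lmo7+/+ and 0.07 lower in the Lmo7-/- library, and none of 79 members was called, where 3.65% of all genes were called higher and 6.25% lower. Tumor cluster 3 had a median of 1999 UMIs per cell and mitochondrially encoded RNA 2.79 lower than cluster 2 on the log2 scale in both libraries, while the nuclear members differed by 0.05 and -0.08 beside a median of 0.21 and 0.23 for all genes. One member (Ndufa4l2) was called higher and 5 lower (Ndufa13, Ndufc2, Sdha, Uqcrc1 and Uqcrc2), where 13% and 13.4% of all genes were. Red cell genes summed to 94.4 CPM in cluster 3 of the Lmo7+/+ library and to 0.48 CPM (1 count) in that of the Lmo7-/- library. Leaving out cluster 3 changed the tumor cell differences between genotypes little, as given with the alternatives in the closing section. Among T cells, cluster 8.2, led by Cd8b1 and Gzmb and rich in cycling genes, held 20907 and 21760 CPM of members, and cluster 8.1, led by Gzmf and Cd8a, held 18650 and 18825.

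The question of the experiment was what loss of Lmo7 in the host changes in the tumor and its cells. For the respiratory chain the 2 libraries were close in every class. The member sum of the Lmo7-/- library over that of the Lmo7+/+ library was 0.04 (0.04 to 0.05) on the log2 scale in tumor cells, 0.01 (0.00 to 0.02) in macrophages, 0.04 (0.01 to 0.07) in M-MDSC-like, 0.12 (0.09 to 0.15) in dendritic-like and 0.07 (0.05 to 0.10) in T-like cells. It was 0.01 (-0.07 to 0.09) in NK-like, -0.10 (-0.14 to -0.05) in fibroblast-like and 0.03 (-0.02 to 0.08) in endothelial-like cells. The tumor cell value pools clusters that differed: by the sums given above, cluster 2 was higher in the Lmo7-/- library and cluster 4 was not. Clusters 3 and 5 lay 0.05 and 0.04 above cluster 2 in the Lmo7+/+ library, and at -0.08 and -0.07 in the Lmo7-/- library. The mix of cells differed too, with 3430 and 1849 cells in cluster 2, 944 and 865 in cluster 4 and 855 and 948 in cluster 5. Past the limit of 0.5 lay none of 79 members in tumor cells, where 4.96% of all genes did, 1 of 81 in macrophages (7.13% of all genes), none of 74 in M-MDSC-like cells (8.77%), 1 of 71 in dendritic-like cells (8.07%) and none of 75 in T-like cells (7.15%). On TMM library sizes the numbers were 0, 1, 1, 2 and 3. On both scales the shares of members past the limit lay below those of all genes. Without TMM, the members past it were Cox4i2 in macrophages and Ndufa1 in dendritic cells.

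Complex IV was the complex with the clearest difference between the libraries. Its sum was higher in the Lmo7-/- library by 0.13 (0.12 to 0.14) in tumor cells, 0.09 (0.07 to 0.10) in macrophages, 0.12 (0.07 to 0.18) in M-MDSC-like, 0.22 (0.16 to 0.27) in dendritic-like, 0.20 (0.15 to 0.24) in T-like and 0.17 (0.01 to 0.33) in NK-like cells, with -0.03 (-0.12 to 0.06) in fibroblast-like and 0.02 (-0.07 to 0.12) in endothelial-like cells. By cluster, the tumor cell values were 0.17 in cluster 2, 0.07 in cluster 3, 0.08 in cluster 4 and 0.11 in cluster 5. In the plot of the 2 libraries by complex, complex II of tumor cells went the other way, at -0.20 (-0.22 to -0.17), and complexes I, III and V of tumor cells lay between 0.02 and 0.04. In macrophages complex V was lower by 0.05 (-0.06 to -0.03). These steps are small: 0.13 on the log2 scale is 5708 against 6248 CPM for complex IV of tumor cells. With a single library each, the genotype cannot be told apart from anything else that differed between the libraries.

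**Figure D4:**
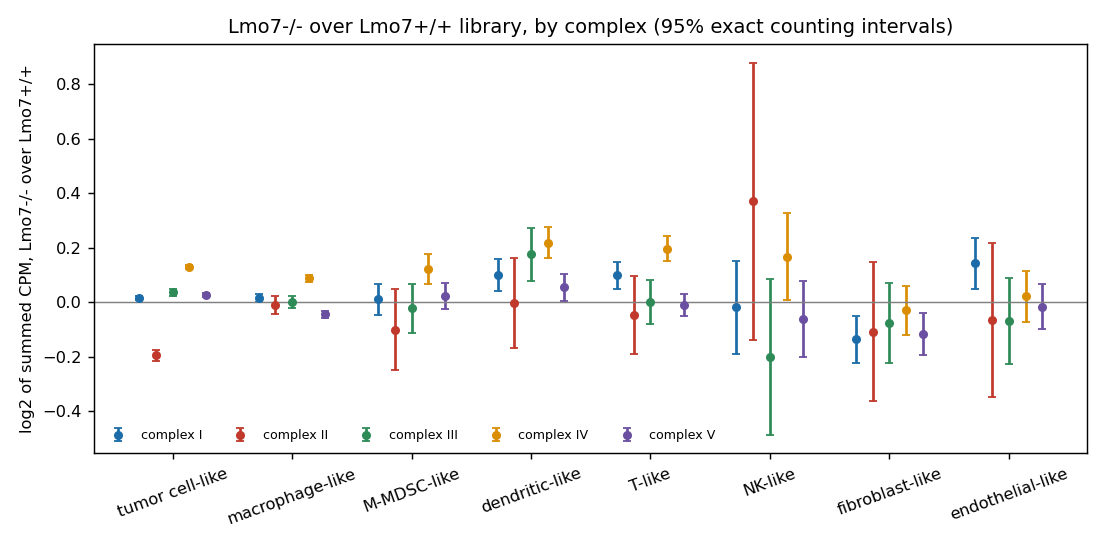
Log2 ratio of summed CPM, Lmo7-/- over Lmo7+/+ library, for each complex and cell class, with 95% exact counting intervals. Complex IV lies above 0 in tumor, macrophage, M-MDSC, dendritic, T and NK cells, and complex II of tumor cells lies at -0.20.

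Several small subunits of complex IV were higher in each of these classes. Cox8a was higher in the Lmo7-/- library by 0.21 in tumor cells (958 to 1107 CPM), 0.21 in macrophages (485 to 562), 0.20 in M-MDSC-like, 0.29 in dendritic-like and 0.29 in T-like cells. Cox6c was higher by 0.19, 0.20, 0.26, 0.25 and 0.18 in the same order, Cox7c by 0.19, 0.14, 0.21, 0.12 and 0.42, Cox7b by 0.13, 0.12, 0.27, 0.39 and 0.16, and Cox6b1 by 0.07, 0.16, 0.30, 0.31 and 0.29. All 5 are nuclear subunits that surround the catalytic core of the enzyme. Cox4i1 and Cox5a, the 2 subunits that enter first in assembly, lay at 0.07 and -0.02 in tumor cells and at -0.07 and 0.02 in macrophages. In M-MDSC-like cells both were lower, from 562 to 515 and from 361 to 353 CPM. In dendritic-like cells both were higher, from 523 to 579 and from 326 to 370 CPM. In T-like cells they went from 597 to 583 and from 369 to 414 CPM. Among the other subunits, Cox7a2l went from 246 to 232 CPM in macrophages and from 193 to 178 in M-MDSC-like cells. Of the complex IV members with enough counts, 9 of 12 in tumor cells, 10 of 14 in macrophages, 7 of 11 in M-MDSC-like, 10 of 11 in dendritic-like and 10 of 11 in T-like cells were above 0. Of all members it was 49 of 79, 37 of 81, 39 of 74, 52 of 71 and 53 of 75, and of all genes 39.3%, 32.6%, 43.3%, 42.8% and 42.9%. The median of all members was 0.04, -0.02, 0.03, 0.12 and 0.07, against -0.04, -0.09, -0.04, -0.04 and -0.04 for all genes. These medians were not matched for transcript length or expression level. On TMM library sizes the medians of all genes became -0.01, 0.00, 0.02, -0.01 and 0.07 and those of the members 0.07, 0.08, 0.09, 0.16 and 0.19. That scaling moved the share of higher among all called genes from 36.8% to 59.9% in macrophages, from 38.9% to 55.8% in M-MDSC-like, from 37.7% to 49.6% in dendritic-like and from 32.6% to 68.8% in T-like cells.

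Transcript length moved with these ratios. Spearman's correlation across members between the ratio of the libraries and the length of the longest principal transcript was -0.31 in tumor cells (78 members), -0.37 in macrophages (80), -0.31 in M-MDSC-like (73), -0.26 in dendritic-like (70) and -0.23 in T-like cells (74). Members are not independent and share their libraries, so this is a description. Over all genes at 100 CPM or more it was -0.28, -0.04, -0.00, -0.15 and -0.22, so in tumor and T cells length went with the ratio among genes in general too. Members under 1000 bases had a median ratio of 0.05, 0.01, 0.05, 0.15 and 0.12, and members of 1000 to 2000 bases -0.02, -0.07, -0.11, 0.09 and -0.05. The 8 members of 2000 bases or more did not continue this order in every class, at -0.01, -0.09, -0.03, 0.06 and 0.10. All genes under 1000 bases at 100 CPM or more had medians of 0.055, -0.049, -0.006, 0.035 and 0.066. Of these genes 71.6%, 39.5%, 46.8%, 57.1% and 68.1% were above 0, against 78.3%, 56.2%, 62.8%, 80.5% and 83.7% of members under 1000 bases. In tumor cells the median of short members was thus not above that of such genes, while in the other classes it was. The median length was 632 bases for complex IV, 838 for complex V, 908 for complex I, 955 for complex III and 2066 for complex II, so the complexes with the highest and the lowest ratios in tumor cells were also those with the shortest and the longest transcripts. The part of length or RNA quality in the complex IV result was not tested.

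Among single members, the highest ratios in tumor cells were those of Ndufb1-ps (210 to 252 CPM, 0.27), Atp5g2 (813 to 961, 0.24), Ndufs5 (180 to 211, 0.23), Atp5j2 (209 to 246, 0.23) and Cox8a, and the lowest those of Sdha (353 to 268, -0.40), Ndufs6 (382 to 310, -0.30), Ndufs3 (55.5 to 49.2, -0.18), Uqcrc1 (121 to 109, -0.15) and Ndufv1 (126 to 114, -0.14). In macrophages Cox4i2 stood alone past the limit, with 14.6 CPM (307 counts) in the Lmo7+/+ and 23.1 CPM (491 counts) in the Lmo7-/- library, a log2 ratio of 0.67. Both macrophage clusters showed it, at 14.5 to 22.2 CPM in cluster 1 and 15.6 to 33.7 in cluster 10. Ndufa1 (136 to 168, 0.30), Cox6a2 (3.98 to 4.89, 0.30), Cox8a and Cox6c came next. Lowest in macrophages were Cox7a1 (8.01 to 6.68, -0.26), Atp5b (425 to 356, -0.26), Ndufs8 (40.4 to 33.9, -0.25), Uqcrc1 (123 to 104, -0.25) and Ndufa4l2 (4.98 to 4.23, -0.23). Atp5b, the catalytic beta subunit, was lower in several classes, at -0.11 in tumor cells, -0.40 in M-MDSC-like and -0.26 in T-like cells, with 419 CPM in both libraries in dendritic-like cells. Ndufa1, which lies on the X chromosome, was the dendritic member past the limit, at 131 to 188 CPM (0.52). Reads of genes with near-identical processed copies elsewhere, a common situation for small subunits, may have been split or dropped in counting, and Ndufb1-ps is annotated in the files under a pseudogene-style symbol.

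The members with the lowest ratios in tumor cells were neighbours on chromosome 13. Ndufs6 (ENSMUSG00000021606, chr13:73319838-73328542) and Sdha (ENSMUSG00000021577, chr13:74322254-74350280), both on the minus strand in GRCm38, carry the promoters shown above with the NRF1 motif. Their ratios in cycling tumor cells (cluster 5) were -0.74 (-0.81 to -0.66), from 349 to 210 CPM, and -0.78 (-0.86 to -0.71), from 337 to 196 CPM. In cluster 2 they were -0.03 (-0.07 to 0.01) and -0.17 (-0.22 to -0.13), in cluster 3 -0.26 and -0.34 and in cluster 4 -0.22 and -0.23. In macrophages they were -0.07 (-0.16 to 0.02) and -0.11 (-0.18 to -0.03), beside a median of -0.09 for all genes there.

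Other genes of the region were also lower, most clearly in cluster 5. Within 5 Mb of Sdha, the median ratio of the other genes tested was -0.65 in cluster 5 (29 of 31 below 0), -0.07 in cluster 2 (23 of 37), -0.15 in cluster 4 (24 of 32) and -0.16 in macrophages (22 of 28). Outside 40 to 80 Mb of chromosome 13, 63.9% of genes were below 0 in cluster 2, 57.2% in cluster 4 and 67.5% in macrophages. Their medians were -0.06, -0.04 and -0.09. In cluster 2 the share near Sdha was thus not above that elsewhere. Of genes of chromosome 13 between 40 and 80 Mb that are no members, 144 of 150 (96.0%) were below 0 in cluster 5, with a median of -0.51, against 58.2% of genes elsewhere and a median of -0.05. Over all tumor cell-like cells it was 170 of 188 (90.4%), with a median of -0.25, against 60.4% and -0.04. These limits of 40 and 80 Mb were set after the values were seen. Of the other 4 members on chromosome 13, 2 followed: in cluster 5 Uqcrb (chr13:66900617-66905378) had -0.23 with neighbours at -0.51, Ndufs4 (chr13:114287795-114388258) -0.24 with neighbours at -0.26. Cox7c (chr13:86044816-86046904) had 0.12 with neighbours at -0.28, and Uqcrfs1 (chr13:30540308-30545362) 0.05 with neighbours at 0.18. Between classes, the other genes of 40 to 80 Mb were a median of 1.01 and 0.98 higher in tumor cells than in macrophages. Elsewhere the median was 0.45 and 0.53. The region did not stand apart on its chromosome: genes of 80 to 90 Mb lay at 2.28 and 2.06 and those of 110 to 120 Mb at 1.42 and 1.53. Genes of 0 to 10 Mb lay at -0.33 and -0.10. In the region, Ndufs6 lay at 1.91 and 1.68, Sdha at 1.24 and 0.95 and Uqcrb at 0.77 and 0.64. Ndufs4, outside it, lay at 1.11 and 1.14.

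**Figure D5:**
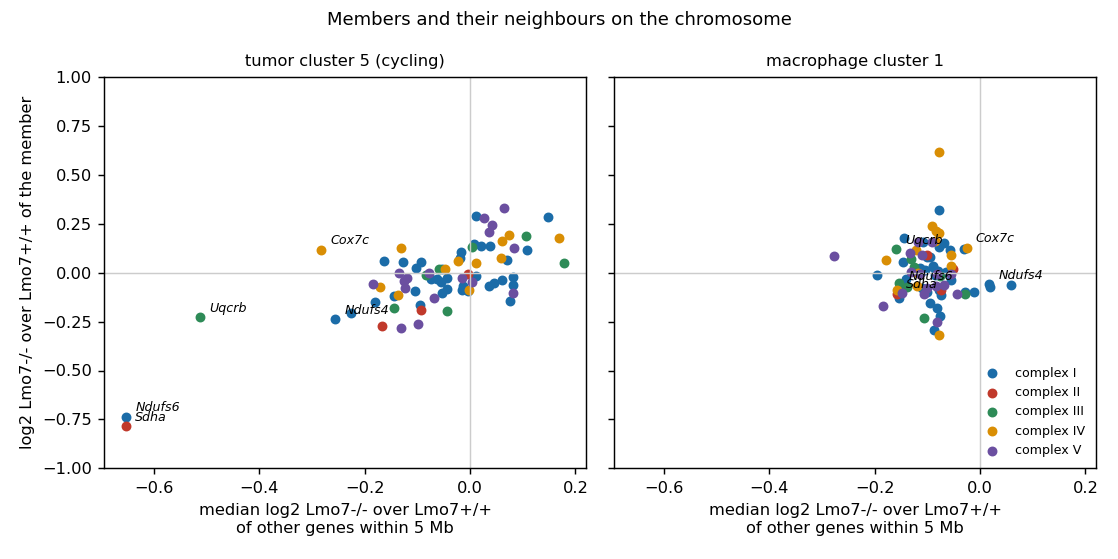
Log2 ratio of each member, Lmo7-/- over Lmo7+/+ library, against the median ratio of other genes within 5 Mb, in cycling tumor cluster 5 (left) and macrophage cluster 1 (right), coloured by complex. Ndufs6 and Sdha lie at -0.74 and -0.78 with neighbours at -0.65 in cluster 5, and inside the main cloud in macrophages.

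Across members, Spearman's correlation between a member's ratio and that of its neighbours was 0.56 in cluster 5 (79 members), 0.38 over all tumor cells (79), 0.07 in cluster 2 (79), 0.16 in cluster 4 (79) and -0.00 in macrophages (81). Members close on a chromosome share neighbours, so the points are not independent. The plot of members against neighbours shows single members, in cluster 5 and macrophage cluster 1 only. By summed counts, the low complex II sum over all tumor cells owed more to Sdha than to the other genes. Without Sdha, the other 3 genes of the complex were lower by 0.07 (-0.10 to -0.04) in place of 0.20. They were lower by 0.17 in place of 0.38 in cluster 5, and higher by 0.03 (-0.01 to 0.07) in cluster 2. In clusters 3 and 4 the sums stayed below 0 without Sdha, at -0.13 in place of -0.19 and at -0.17 in place of -0.20. Without cluster 5, the ratio of complex II over tumor cells was -0.14, that of Sdha -0.28 and that of Ndufs6 -0.17. The cause of the shared difference was not tested.

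Related lists gave a partly different picture. Genes of the tricarboxylic acid cycle, which feeds the chain, were lower in the Lmo7-/- library by 0.16 in macrophages (1 of 13 above 0, Fh1 lowest at -0.51) and by 0.09 in tumor cells. Mitochondrially encoded subunits were lower by 0.11 and 0.05. Proteins of the mitochondrial ribosome were lower by 0.14 in macrophages, where 9 of 78 lay above 0, and 0.02 higher in tumor cells, where 54 of 78 did. In macrophages and tumor cells, assembly factors of the complexes differed by -0.01 and 0.03, regulators of mitochondrial biogenesis by -0.16 and -0.00, and the electron carriers and other subunits, such as cytochrome c, by -0.07 and 0.04. Glycolysis genes were higher by 0.11 in macrophages and 0.08 in tumor cells, with 14 of 16 above 0 in each, and Slc2a1, the glucose transporter, was highest in tumor cells at 0.46. Genes of the stress response to tissue dissociation were lower in the Lmo7-/- library by 0.27 in macrophages, 0.13 in tumor cells and 0.49 in T cells, and macrophage cycling genes were lower by 0.29. These sums stand beside 32.6% of all genes above 0 and a median of -0.09 in macrophages. On TMM library sizes the macrophage sums were nearer to 0 for the tricarboxylic acid cycle (-0.06), mitochondrially encoded subunits (-0.01) and the mitochondrial ribosome (-0.04), and further from it for glycolysis (0.20). The part of dissociation stress and of cycling in these values was not tested.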

How the data were processed

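Live cells sorted from MC38 tumors were profiled on the 10x Genomics Chromium system, with 1 library per host genotype. The deposited values are raw UMI counts per gene and droplet; per the labels the authors' processing notes name Cell Ranger 2.1.1 and the mm10 build, and cells had been called before deposit. Here droplets needed 500 genes, 1000 UMIs and a mitochondrial share of 15% or less, and doublets stayed in (Scrublet in scanpy 1.11.5 marked 2.82% and 2.37%). Counts were scaled to 10000, and 2000 variable genes without members or mitochondrial genes gave 30 components, a graph of 20 neighbours and Louvain clusters (igraph 0.11.9) at resolution 0.5, without integration. Host clusters took the name of the list with most of their 10 leading genes (else the highest score) when it scored at least 0.3 and other lists under 0.35 of it, except that macrophage, M-MDSC and neutrophil lists with fewer leading genes were not counted as rivals of one another. Tumor cell-like clusters were those with every host list under 0.3, few Ptprc counts and at least 3 tumor markers detected. The naming limits were chosen with the values in view. Members and lists were chosen with earlier results of these data known. A cluster that could not be named was clustered again.

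Counts were summed per class and library, divided by the class total (CPM) and compared as log2 ratios, with exact binomial intervals on the split of counts (scipy 1.17.1). Ratios needed 100 counts over the sums compared, a call a difference of 0.5, and a sum at 0 was set to 3 counts and read as a bound. No p-value was computed, since there is 1 library per genotype and cells are not replicates. The calculation was tested on simulated data. Named members are isoform families, core subunits, the 5 highest and 5 lowest of the main comparisons and the 5 widest over classes, besides members called in the other comparisons, on chromosome 13 or recurring over classes, which were picked after their values were seen. Positions and transcript lengths are from GENCODE for GRCm38, and promoters from RefSeq GRCm38.p6. The depth (80648345 and 98582479 UMIs) sets the intervals, which cover counting error only. One result is not reported here.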

Additional observations from a re-analysis of the deposited data

Results flagged for a closer look

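Members whose ratio of the libraries had opposite signs in tumor cells and macrophages, with both counting intervals clear of 0, numbered 4. Atp5g2 was at 0.24 in tumor cells and -0.056 in macrophages, Uqcrfs1 at 0.098 and -0.076, Cox4i1 at 0.069 and -0.073, and Sdhd at -0.087 and 0.077. The difference between the classes was not tested, since each genotype has 1 library, and 3 of the 4 are smaller than 0.1 in both classes.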

How the results depend on the processing

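Values are log2 differences. The members' sum of the Lmo7-/- over the Lmo7+/+ library, 0.044 in tumor cells, was 0.023 with lenient cell filters (200 genes, 500 UMIs, 25% mitochondrial), 0.027 without doublets marked by Scrublet, 0.040 at resolution 1.0, 0.032 with members allowed in clustering, 0.040 with mitochondrially encoded genes left out of CPM, 0.073 on TMM library sizes, 0.051 as a mean over cells and 0.049 without cluster 5. In macrophages 0.011 became 0.0041 with lenient filters and 0.11 on TMM, and turned to -0.035 at resolution 1.0 and -0.025 with members allowed in clustering. In M-MDSC-like cells 0.038 became 0.067 without doublets, 0.072 with members in clustering and 0.095 on TMM, in dendritic-like cells 0.12 became 0.15 with strict filters (1000 genes, 2000 UMIs, 10%) and 0.16 on TMM, and in T-like cells 0.072 became 0.032 with lenient filters and 0.19 on TMM.

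The sum of tumor cells over macrophages, 0.41 in the Lmo7+/+ library, was 0.43 with lenient and 0.38 with strict filters, 0.40 without doublets, 0.40 at resolution 0.2, 0.43 at resolution 1.0, 0.43 without mitochondrially encoded genes, 0.035 on TMM, 0.32 as a mean over cells and 0.39 without cluster 5. For the Lmo7-/- library, 0.45 was 0.41 with strict filters, 0.43 without doublets, 0.43 at resolution 0.2, 0.51 at resolution 1.0, 0.47 with members in clustering, 0.47 without mitochondrially encoded genes, 0.00090 on TMM, 0.36 as a mean over cells and 0.43 without cluster 5.

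Among complex sums whose counting interval excluded 0, 7 values changed sign: complex I of tumor cells (-0.00076, lenient filters) and of macrophages (-0.034 at resolution 1.0, -0.021 with members in clustering), complex II of tumor cells over macrophages on TMM (-0.077 and -0.33), complex IV of the same comparison on TMM in the Lmo7-/- library (-0.0022) and complex V of macrophages on TMM (0.051). The cause was not tested. Sums whose interval held 0 also lay on both sides of it: complex I of M-MDSC-like, complexes II and III of macrophages, M-MDSC-like and T-like cells, complex II of dendritic-like and complex V of T-like cells. Complex IV stayed above 0 between the libraries under every alternative run in tumor cells, macrophages, M-MDSC-like, dendritic-like and T-like cells. At a limit of 0.25 in place of 0.5, 50 members in place of 32 were called between tumor cells and macrophages, and between the libraries 6 in place of 1 in macrophages and 3 in place of 0 in tumor cells. All genes were not counted at the limit of 0.25, so these numbers have no background to be read against. Of 460 values of named members 442 were counted as unmoved and none changed sign. A value of at least 0.5 in size counted as unmoved as long as it stayed so, even where it moved far. Smaller values had to stay near the main value. For Cox4i2 between tumor cells and macrophages of the Lmo7-/- library, values ran from -8.93 to -5.83. Leaving out cluster 3, cells with shared barcodes or cluster 5 was added after the data were seen, and without cluster 3 the tumor cell sum was 0.048. No M-MDSC-like class formed at resolution 0.2. No paired analysis was possible because each genotype has 1 library. Depth limits M-MDSC-like, NK-like, fibroblast-like and endothelial-like cells most, where single members rest on few counts.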
